A study of Mus musculus with 6 samples.

Results

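The class II myosin heavy chains are the motor subunits of the contractile and cytoskeletal filaments, and 6 of their genes, Myh6, Myh7, Myh7b, Myh9, Myh10 and Myh14, were followed by symbol in the mouse gene annotation of the deposited tables. All 6 were among the 27998 annotated genes, and 8 further class II genes of skeletal and smooth muscle were read beside them. The data came from droplet sequencing of left ventricular cardiomyocytes (CMs) of C57BL/6J mice at embryonic day 16.5 (E16.5), postnatal day 1 (P1) and postnatal day 5 (P5), sorted into diploid (2n) and tetraploid (4n) fractions, which gives 6 libraries, each named by its age and ploidy (from E16.5-2n to P5-4n). The age given for E16.5-4n in the sample record differs in its decimal from that in the title, and the title was followed. The labels give no genetic change and no treatment for any group. Each library pooled methanol-fixed cells from 3 sorts, gated on Hoechst for DNA content and on an antibody against the myosin heavy chain MYH1, so the gate itself selected on sarcomeric myosin protein.

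Each condition has 1 library, so the spread between samples of a condition is not known and no test between conditions was made, and every interval given is an exact 95% interval for counting error only. CMs were defined by at least 1 unique molecular identifier (UMI, a tag that counts a captured mRNA molecule) of each of Tnni3, Tnnt2, Actc1 and Tnnc1, sarcomeric genes used as cardiomyocyte markers, and 30733 of 31156 cells passed. The 6 libraries held 3654 to 7340 CMs, 13070343 to 19665830 CM UMIs and a median of 1831 to 4658 UMIs per CM. Library pairs shared 17 to 62 cell barcodes, at most 1.22% of the smaller library. Levels are UMIs summed over all CMs of a library and scaled by the UMI total of those CMs (CPM, UMIs per 1000000 UMIs).

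In the ventricle of small rodents the sarcomere is built with β-myosin heavy chain (Myh7), a slow and economical motor, before birth and with α-myosin heavy chain (Myh6), a faster ATPase, afterwards, and the exchange of these motors is a textbook mark of cardiomyocyte maturation that is partly undone under load. Myh7b is a distant sarcomeric relative expressed at low level in heart and slow muscle. Myh9, Myh10 and Myh14 encode the nonmuscle heavy chains IIA, IIB and IIC, which form the cortical and contractile-ring filaments of most cells, and IIB is the principal form of embryonic cardiomyocytes.

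The cardiac pair lies in tandem on the minus strand of chromosome 14 (GRCm38), with Myh6 (ENSMUSG00000040752) at chr14:54941921-54966927 and Myh7 (ENSMUSG00000053093) at chr14:54970684-54994626, 3756 bases apart. Mhrt, a noncoding gene on the plus strand at chr14:54968678-54974349, overlaps the end of Myh7 over 3666 of its 5672 bases. Myh7b (chr2:155611212-155634307, plus strand), Myh9 (chr15:77760587-77842175, minus strand), Myh10 (chr11:68691559-68816632, plus strand) and Myh14 (chr7:44605803-44670843, minus strand) lie on other chromosomes. The UMIs were counted by strand over exons and introns. The longest coding transcripts of Myh6 and Myh7 are 6113 and 6230 bases long, in 39 and 41 exons.

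Each of the 3 sarcomeric members carries a microRNA gene in an intron on its own strand: Mir208a in intron 29 of Myh6, Mir208b in intron 31 of Myh7 and Mir499 in intron 19 of Myh7b. Their mature strands (RefSeq, GRCm38.p6) are shown because host and microRNA share a transcript, with the seed (bases 2 to 8) in capitals.
mmu-miR-208a-3p: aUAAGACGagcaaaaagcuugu
mmu-miR-208b-3p: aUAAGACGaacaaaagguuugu
mmu-miR-499-5p: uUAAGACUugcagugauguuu
The products of the α and the β gene, miR-208a-3p and miR-208b-3p, had the same seed, UAAGACG, and miR-499-5p had the seed UAAGACU. The levels of the mature microRNAs were not analysed here.

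The bases before the RefSeq start of both cardiac genes are shown because these 2 neighbours differed in opposite directions between the ages (RefSeq promoter windows, GRCm38.p6, minus strand, chr14:54966642-54966857 for Myh6 and chr14:54994627-54994876 for Myh7). The Myh6 window lies next to the first exon of its longest coding transcript, but 1 of 7 annotated Myh6 transcripts begins farther upstream, with its first exon at chr14:54966891-54966927, so the window is inside the annotated span of the gene. Capitals mark matches, on either strand, to the letters TATAAA (the TATA box) or CATTCC (bound by TEAD factors), to the thyroid hormone receptor half-site AGGTCA, or to CANNTG (the E-box).
Myh6: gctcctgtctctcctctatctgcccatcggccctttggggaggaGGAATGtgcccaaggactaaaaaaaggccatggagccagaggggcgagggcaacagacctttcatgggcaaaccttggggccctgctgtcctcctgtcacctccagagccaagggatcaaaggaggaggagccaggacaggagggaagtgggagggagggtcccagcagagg
Myh7: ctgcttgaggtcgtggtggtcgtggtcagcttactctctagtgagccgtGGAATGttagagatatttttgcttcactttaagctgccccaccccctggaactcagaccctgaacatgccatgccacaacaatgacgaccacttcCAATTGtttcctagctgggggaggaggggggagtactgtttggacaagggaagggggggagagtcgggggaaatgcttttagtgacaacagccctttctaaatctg
Each window held CATTCC in the reverse orientation, as GGAATG, at bases 45 to 50 of the Myh6 run and 50 to 55 of the Myh7 run. CATTCC was present in 11.3% of 32851 promoter windows cut to the length of the Myh6 window and in 12.6% cut to that of Myh7. The Myh7 run also held 1 E-box, CAATTG, a motif found in 66.2% of windows of that length, and neither run held TATAAA or AGGTCA. These are matches of letters and nothing was measured at them.

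Myh7 was the most abundant of the 6 genes before birth and Myh6 afterwards. In 2n CMs Myh6 stood at 352 CPM at E16.5, 2528 at P1 and 2511 at P5, and in 4n CMs at 295, 2267 and 2924 CPM. In 2n CMs Myh7 stood at 3765 CPM at E16.5, 955 at P1 and 183 at P5, and in 4n CMs at 3351, 806 and 166 CPM. For both genes the ages did not overlap between E16.5 and P1, whichever ploidy was taken, and for Myh7 P1 and P5 did not overlap either. The share of all genes that separated the ages in this way was not counted.

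**Figure D1:**
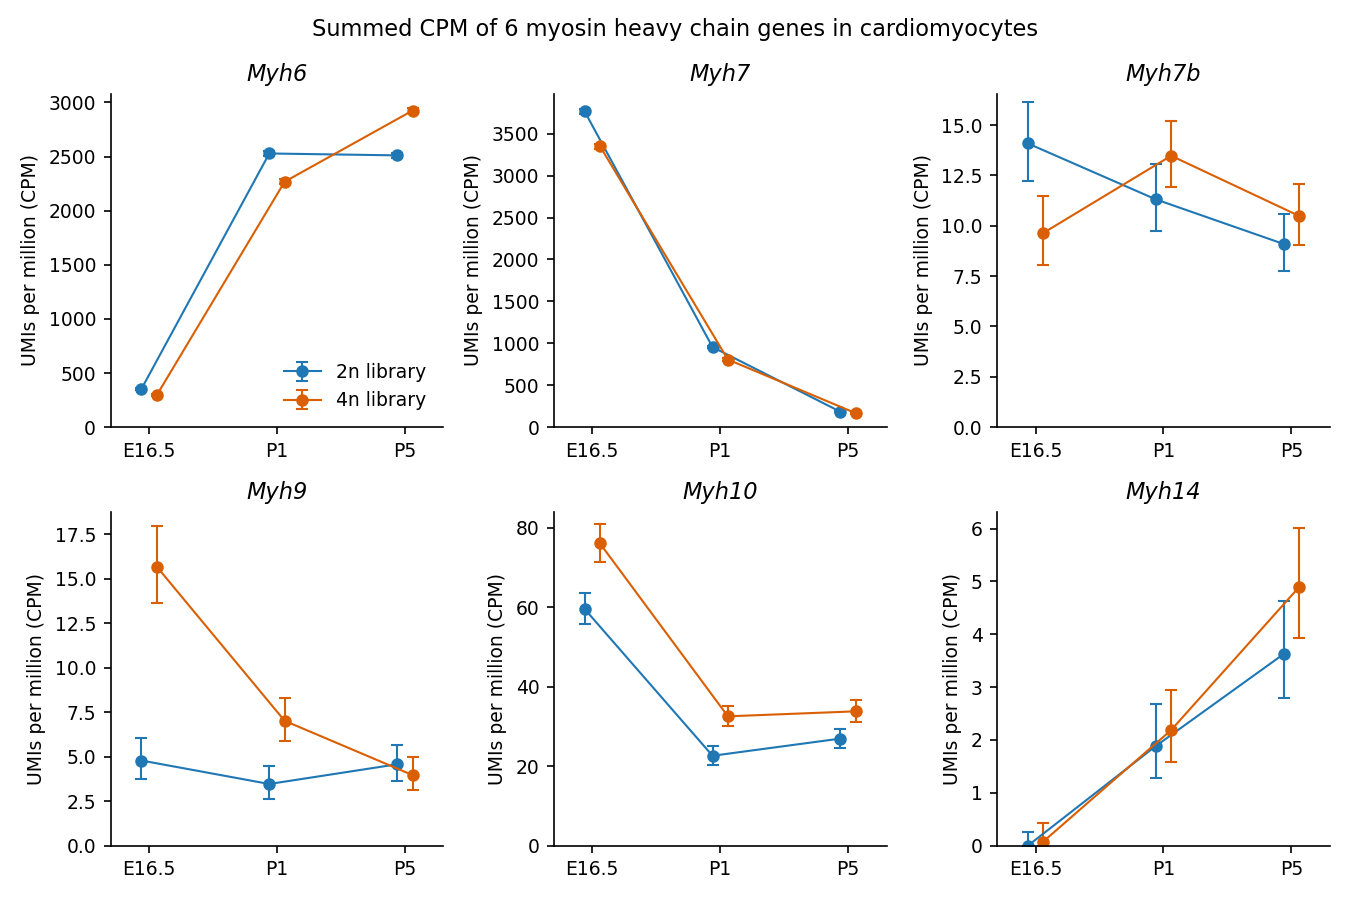
Summed CPM (axis from 0 in each panel) of the 6 genes by age; points are libraries, bars exact 95% Poisson intervals, blue 2n and orange 4n. Myh6 goes from 352 and 295 at E16.5 to 2528 and 2267 at P1 while Myh7 is lower at each later age, and Myh9 separates the ploidies at E16.5 (4.79 against 15.7).

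Between E16.5 and P1 the log2 CPM ratio of Myh6 was 2.84 (95% interval 2.80 to 2.89) in 2n CMs and 2.94 (2.90 to 2.99) in 4n CMs, 7.18-fold and 7.69-fold. Between P1 and P5 it was -0.01 (-0.03 to 0.01) in 2n CMs and 0.37 (0.35 to 0.39) in 4n CMs. Most of the difference in Myh6 lay before P1, and the small 2n value turned positive, 0.04 to 0.13, under each of the 3 other scalings of the libraries. For Myh7 both steps were large. Its log2 ratio was -1.98 (-2.01 to -1.95) in 2n and -2.06 (-2.08 to -2.03) in 4n CMs between E16.5 and P1, and -2.38 (-2.43 to -2.33) and -2.28 (-2.33 to -2.22) between P1 and P5. Over the whole span Myh7 was 20.5-fold lower in 2n and 20.2-fold lower in 4n CMs.

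These ratios are read against all genes with at least 100 UMIs over the 2 libraries compared, of which 14.1% (2n) and 14.5% (4n) differed by at least 2-fold in CPM between E16.5 and P1. There 3 of 5 tested members (Myh6, Myh7 and Myh10) passed 2-fold in 2n CMs and 4 of 5 (with Myh9) in 4n CMs, although Myh9 and Myh10 left the 4n count under the other scalings. Between P1 and P5 the share of all genes was 5.01% in 2n and 8.24% in 4n CMs, and the members past 2-fold were Myh7 in 2n and Myh7 and Myh14 in 4n CMs. Between E16.5 and P5 it was 19.9% and 23.4%, with 3 of 5 and 4 of 5 members past 2-fold, of which Myh10 fell short under each of the 3 other scalings in both ploidies. The median gene itself had a log2 CPM ratio of -0.34 (2n) and -0.30 (4n) between E16.5 and P1 and of -0.45 and -0.51 between E16.5 and P5. Scaling by the median of ratios moved all genes up by 0.35 and 0.33 in the first of these and by 0.45 and 0.53 in the second.

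Seen within the pair, which needs no library total, Myh7 held 91.4% (91.2 to 91.7) of the Myh6 plus Myh7 UMIs of 2n CMs before birth, 27.4% (27.0 to 27.8) on day P1 and 6.81% (6.59 to 7.04) on day P5. In 4n CMs the share was 91.9% (91.7 to 92.2), 26.2% (25.9 to 26.6) and 5.38% (5.20 to 5.57). Age ordered the libraries without overlap. Within an age the intervals of the ploidies overlapped at E16.5 but not at P1 and P5, where no replicate library gives the spread between samples. At P1 the order of the ploidies turned at 2000 UMIs per CM, to 25.1% in 2n and 27.1% in 4n CMs, against 29.2% and 28.7% at 1000 UMIs. The setting of 2000 UMIs kept 43.7% of P1-2n and 79.0% of P1-4n CMs, that of 1000 UMIs 90.5% and 100%. Depth and the choice of CMs were not told apart here. Per kilobase of transcript the Myh7 share was 91.3%, 27.0% and 6.69% in 2n and 91.8%, 25.9% and 5.28% in 4n CMs, from the earliest age to the latest. The pair as a whole changed less, from 4118 CPM before birth to 3483 and then 2694 in 2n CMs and from 3646 to 3074 and then 3090 in 4n CMs. The transcript ends of these paralogues are alike: 13.2% of the windows of 130 bases, the length of the cDNA read, in the last 1000 bases of either transcript are found unchanged in the other, and a read inside such a window cannot be given to either gene. In the last 500 bases the part was unequal, at 11.9% of Myh6 and 18.9% of Myh7 windows, and its effect on the Myh7 share was not tested.

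Myh6 was found in nearly every CM after birth, and at P5 most CMs had no Myh7 molecule captured. For a common depth of 2000 UMIs per CM, 2738 to 3967 CMs per library were deep enough, from 43.7% of CMs in P1-2n to 95.4% in P5-4n. Myh6 was then found in 44.6% of 2n CMs at E16.5, 98.8% at P1 and 98.4% at P5, and in 38.1%, 97.5% and 99.3% of 4n CMs. Myh7 was found in 99.3%, 65.8% and 21.9% of 2n CMs and in 99.1%, 66.5% and 22.1% of 4n CMs at these ages. Without thinning the Myh7 shares at P5 were 33.2% in 2n and 38.6% in 4n CMs, whose median depth was 3759 and 4658 UMIs. Among the 423 cells that failed the CM filter, 24 to 129 per library with a median of 911 to 1439.5 UMIs, Myh6 was found in 13.3%, 63.6% and 12.2% in the 2n and 17.6%, 43.3% and 25% in the 4n libraries, from the earliest age to the latest. Myh7 was found in 45.8% and 43.4% of failing cells before birth and at P1 in the 2n libraries. In P5-2n it was found in 0 of 49, where 3 cells would be a share of 6.12%. In the 4n libraries it was found in 61.1%, 20% and 4.17%. At 1000 UMIs per CM, nearer the depth of the failing cells, Myh6 was found in 26.0%, 90.3% and 88.6% of 2n and 23.6%, 88.4% and 91.2% of 4n CMs, and Myh7 in 95.7%, 52.3% and 13.7% of 2n and 93.8%, 49.0% and 12.9% of 4n CMs. In CPM the gap was smallest for Myh7 in P1-2n, where failing cells stood at 910 and CMs at 955. The share of P1-2n CMs with Myh7 was likewise not far above that of cells outside the CM filter. The Myh7 share of the pair in failing cells was near that of the CMs at E16.5, at 90.3% in 2n and 89.0% in 4n. At P1 it was 34.2% (29.2 to 39.4) in 2n, above the 27.4% (27.0 to 27.8) of the CMs, and 32.6% (19.5 to 48.0) in 4n. At P5 the failing cells held only 8 Myh6 and 0 Myh7 UMIs in 2n and 6 and 1 in 4n.

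CMs with both transcripts were most frequent at P1. At 2000 UMIs they made up 44.2%, 65.0% and 21.6% of 2n CMs and 37.7%, 64.9% and 21.9% of 4n CMs, from the earliest age to the latest. Nearly all other CMs had only Myh7 before birth (55.1% and 61.4%) and only Myh6 after it (33.8% and 32.5% at P1, 76.8% and 77.5% at P5). At the full depth of each library the shares with both were 47.2%, 66.3% and 33.0% in 2n and 42.1%, 77.6% and 38.6% in 4n CMs. At 1000 UMIs the P1-2n share was 47.2% (46.0 to 48.4) and the P1-4n share 44.1% (42.7 to 45.6). The order of the ploidies at P1 thus changed with the depth setting, which also changed the CMs kept.

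**Figure D2:**
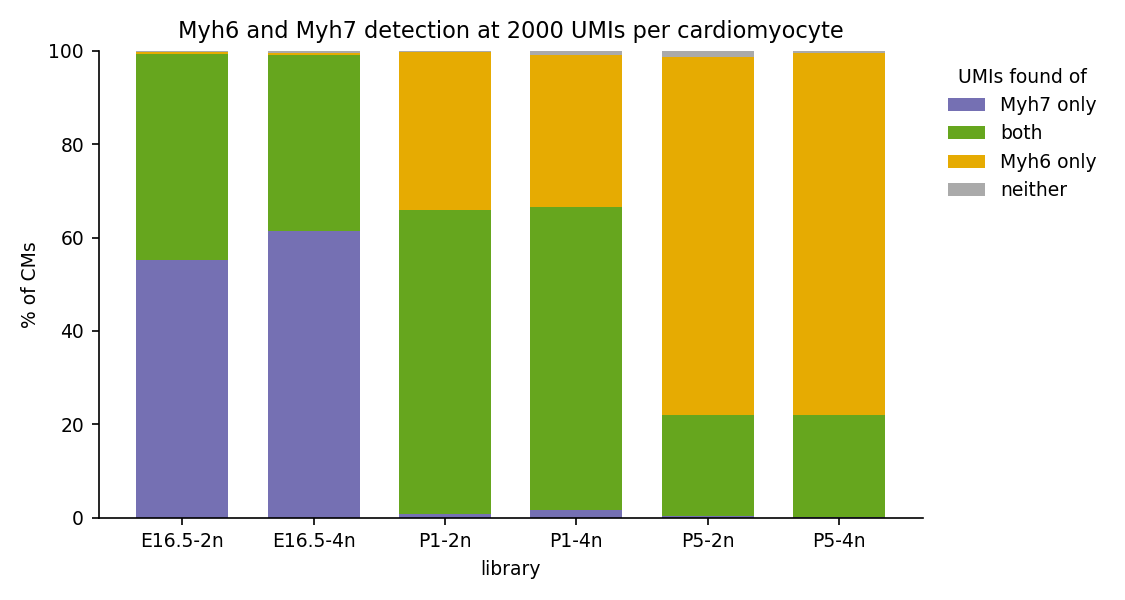
Share of CMs (%) in which UMIs of only Myh7, both, only Myh6 or neither gene were found, after each CM was thinned to 2000 UMIs; each bar is 1 library and adds to 100%. CMs with both transcripts are most frequent at P1, at 65.0% and 64.9%, and CMs with only Myh6 hold 76.8% and 77.5% at P5.

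Single CMs with at least 5 UMIs of the pair showed how the mixture was spread (the histograms of the Myh7 share per CM). In 2n CMs Myh7 held the majority in 98.96% of 4882 such CMs at E16.5, 14.7% of 5022 at P1 and 1.84% of 3697 at P5. In 4n CMs it did so in 98.9% of 3728, 11.9% of 4002 and 0.660% of 3334. At P1 the middle of the range was filled: 56.3% of P1-2n and 55.6% of P1-4n CMs had a Myh7 share between 20% and 80%, the median was 22.2% in both libraries, and the quartiles lay at 10% and 41.7% in P1-2n and at 10.5% and 40% in P1-4n. Above a share of 60% no bin of 5 points held more than 2.57% of the P1 CMs. The variance of the share over CMs was 1.65 and 1.77 times that of binomial counting at E16.5, 2.36 and 2.66 times at P1 and 3.19 and 2.71 times at P5.

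**Figure D3:**
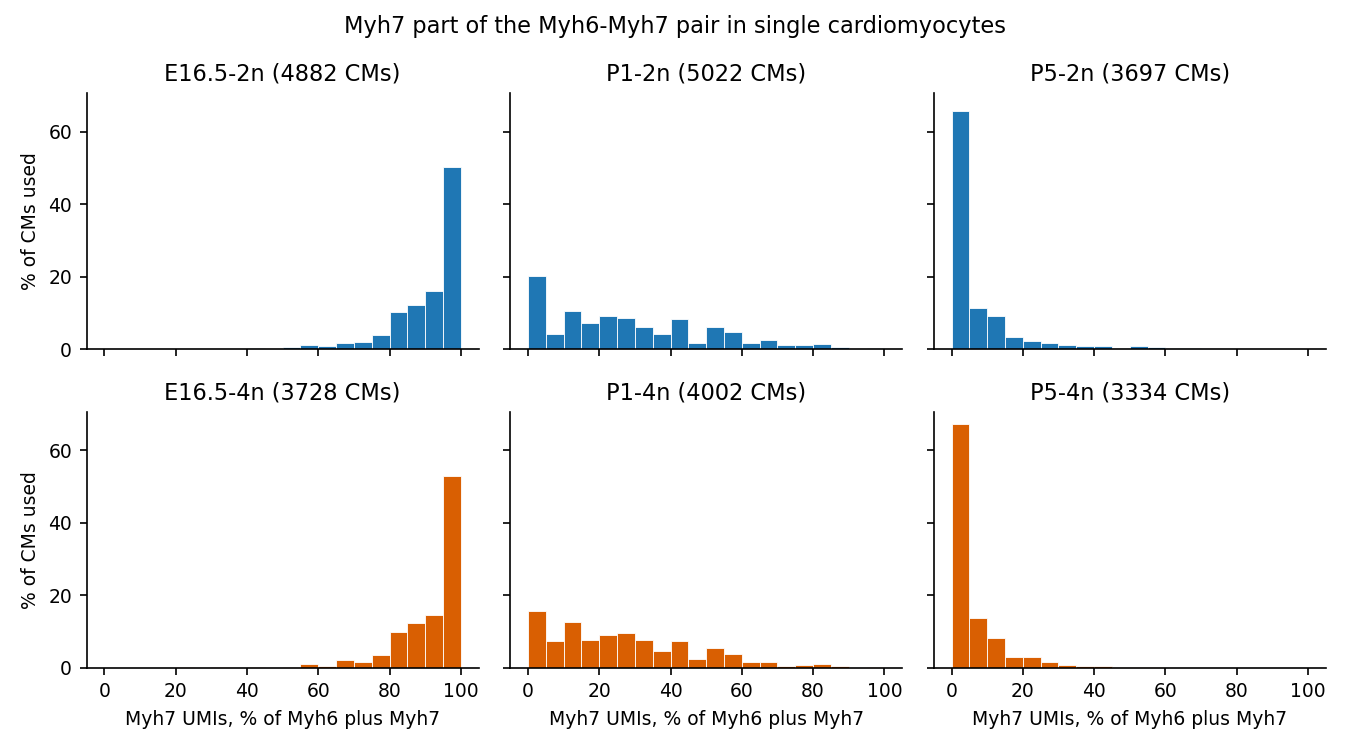
Histograms of the Myh7 share (% of Myh6 plus Myh7 UMIs, bins of 5 percentage points) over CMs with at least 5 UMIs of the pair, as % of those CMs; columns are ages, rows ploidies, and the number of CMs used is in each title. The mass sits near 100% at E16.5, spreads over the whole range below 80% at P1 and collects near 0% at P5.

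Myh7 was unevenly spread at P5. At 2000 UMIs per CM its mean was 0.379 UMIs in P5-2n and 0.345 in P5-4n, and Poisson scatter around these means would leave a UMI in 31.5% and 29.2% of CMs where 21.9% and 22.1% were observed. The tenth of CMs richest in Myh7 held 68.5% and 65.1% of its UMIs, and single CMs reached 12 and 10. Myh6 was closer to even, with a variance of 1.41 and 1.62 times its mean against 2.503 and 2.15 for Myh7. Myh10 and Myh7b, at far lower levels, had variances between 0.971 and 1.07 times their means in all 6 libraries.

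CMs rich in Myh7 after birth had close to the same Myh6 level as CMs without it. CMs were grouped by their Myh7 UMIs at 2000 UMIs per CM, and those with at least 3 were set against those with 0. These groups cut a continuous range, with 1312 and 723 2n CMs and 1589 and 672 4n CMs at 1 or 2 UMIs in between at P1 and P5. Myh6 stood at 2502 against 2581 CPM in P1-2n (log2 ratio -0.05, -0.10 to 0.01) and at 2226 against 2281 CPM in P1-4n (-0.04, -0.09 to 0.02). In P5-2n it stood at 2429 against 2505 CPM (-0.04, -0.15 to 0.06) and in P5-4n at 2881 against 2884 CPM, with an interval of -0.13 to 0.12. All 4 intervals include 0. At E16.5 only 24 and 25 CMs had no Myh7 UMI. Against these few CMs the log2 ratio of Myh6 was -0.53 (-1.11 to 0.11) in E16.5-2n and -0.87 (-1.42 to -0.27) in E16.5-4n.

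Nppa, the atrial natriuretic peptide of embryonic ventricle, went furthest with Myh7 on average over the 4 postnatal libraries, among genes higher in each. It stood at 3360 CPM in Myh7-rich against 1118 in Myh7-free CMs of P1-2n (log2 ratio 1.59, 1.52 to 1.66), and the log2 ratio was 0.95 (0.88 to 1.02) in P1-4n, 1.32 (1.19 to 1.44) in P5-2n and 0.86 (0.65 to 1.06) in P5-4n. Among genes with at least 100 UMIs over the classes compared, 0.148% of 3378 in P1-2n, 0.281% of 3910 in P1-4n, 4.9% of 4593 in P5-2n and 5.83% of 4302 in P5-4n differed by at least 2-fold. Nppa was the only gene higher by 2-fold in P1-2n, and no gene was past 2-fold in all 4 libraries. At P5 other genes went further than Nppa, such as Clu in P5-2n (log2 ratio 1.66) and Nampt in P5-4n (1.63). In P5-4n 90 genes were past 2-fold higher and Nppa was not among them. Over the 3281 genes that could be read in all 4, Nppa had the largest mean log2 ratio among those higher in each (1.18), and it and the genes named next were chosen after their values were seen. The genes with the lowest means among those lower in each library, though not with an interval below 0 in each, were Cks2 (mean log2 ratio -1.05), a cyclin-dependent kinase subunit, Cenpa (-1.04), the centromeric histone, and Rrm2 (-0.97), a subunit of ribonucleotide reductase. Only 147 and 97 CMs of the P5 libraries were Myh7-rich, against 799 and 905 at P1. Before birth Nppa went the other way, with log2 ratios of -0.87 (-1.08 to -0.66) in E16.5-2n and -0.91 (-1.12 to -0.69) in E16.5-4n. Those values rest on 24 and 25 Myh7-free CMs.

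The same direction was seen in the list of 16 mitosis markers. The share of CMs with UMIs of at least 2 of these markers was 42.3% (40.5 to 44.2) in CMs without Myh7, 28.7% (25.3 to 32.3) with 1 or 2 UMIs and 10.3% (5.06 to 18.1) with 3 or more in P5-4n. In P1-4n it was 13.5%, 11.8% and 7.29%, in P5-2n 8.81%, 7.33% and 2.04%, and in P1-2n 4.56%, 4.19% and 3.0%, where the intervals of the outer classes overlap. Read the other way, Myh7 stood at 115 CPM in P5-4n CMs with at least 2 mitosis markers against 223 CPM in the others (log2 ratio -0.96, -1.07 to -0.85), and the log2 ratio was -0.28, -0.40 and -0.60 in 2n CMs at the 3 ages and -0.26 and -0.44 in 4n CMs before birth and at P1. Myh6 was lower in the marked CMs too, with log2 ratios of -0.20 to -0.42 over the 6 libraries.

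**Figure D4:**
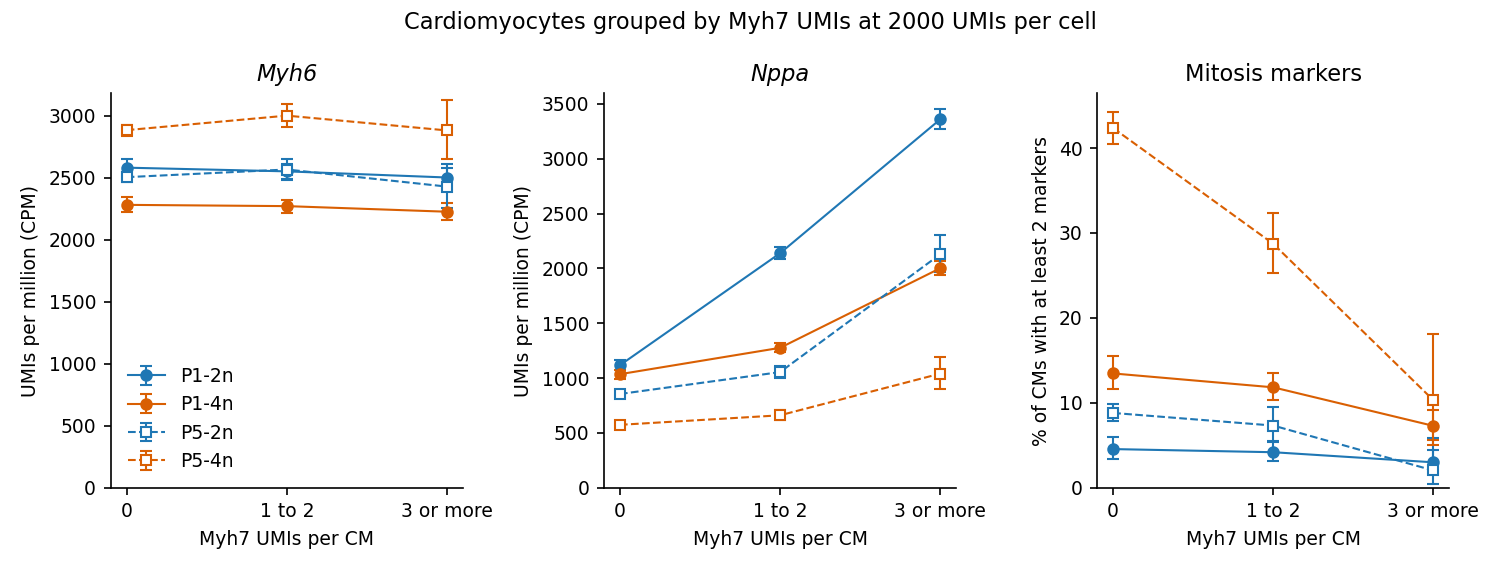
CMs of the 4 postnatal libraries grouped by Myh7 UMIs after thinning to 2000 UMIs; left and middle, CPM of Myh6 and Nppa, right, % of CMs with UMIs of at least 2 of 16 mitosis markers, bars exact 95% intervals. Myh6 stays level across the groups while Nppa is higher with more Myh7, from 1118 to 3360 CPM in P1-2n, and the mitosis markers are less frequent, from 42.3% to 10.3% in P5-4n.

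Myh10, the IIB chain, was the third most abundant of the 6 genes, and from the highest level down the libraries were E16.5-4n (76.1 CPM), E16.5-2n (59.6), P5-4n (33.8), P1-4n (32.5), P5-2n (26.9) and P1-2n (22.6). The intervals of P5-4n and P1-4n overlap, as do those of P5-2n and P1-2n. It was lower at P1 than at E16.5 with a log2 ratio of -1.40 (-1.58 to -1.22) in 2n and -1.22 (-1.37 to -1.08) in 4n CMs, and hardly differed between P1 and P5 (0.25, 0.05 to 0.45, and 0.05, -0.11 to 0.22). It was higher in 4n than in 2n CMs at every age, with log2 ratios of 0.35 (0.22 to 0.49), 0.52 (0.34 to 0.71) and 0.33 (0.15 to 0.50) at E16.5, P1 and P5, all short of 2-fold. Of all genes 4.66%, 5.23% and 2.28% passed 2-fold between the ploidies at these ages, and of the members only Myh9 did, at E16.5 and P1.

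Myh10 also went with mitosis markers within a library after birth. CMs with at least 2 markers had a log2 ratio of Myh10 CPM to the other CMs of 0.98 (0.45 to 1.46) in P1-2n, 0.48 (0.22 to 0.73) in P1-4n, 0.85 (0.56 to 1.14) in P5-2n and 0.76 (0.52 to 1.00) in P5-4n. Before birth it was 0.13 (-0.08 to 0.34) for 2n CMs and 0.29 (0.10 to 0.50) for 4n CMs. The marked CMs were also the deeper ones, and at 2000 UMIs per CM the values were 0.31, 1.38 and 0.94 in 2n and 0.31, 0.39 and 0.83 in 4n CMs from the earliest age to the latest, with an interval that includes 0 in E16.5-2n and P1-4n. At 1000 UMIs the P5-2n value was -2.49 (-7.81 to 0.02), from 1 Myh10 UMI in the marked CMs, and the E16.5-2n value was -0.15. Other-cell markers were the fibroblast, endothelial, immune, mural, epicardial and erythroid lists. The erythroid list, with the haemoglobin genes, summed to 1649 to 10332 CPM over the libraries, and the mural marker Abcc9 stood at 33.7 to 92.8 CPM. Whether a CM with such a UMI held another cell was not tested. Without CMs carrying any other-cell marker, which kept 2.44% to 18.1% of CMs, the values at P1 and P5 were -1.33 and 0.36 in 2n and 1.24 and 0.27 in 4n CMs, and -0.46 in 4n CMs before birth, so the direction in P1-2n and E16.5-4n depended on the CMs kept. At 2000 UMIs the marked CMs made up 21.9%, 4.02% and 8.29% of 2n and 59.1%, 11.3% and 38.83% of 4n CMs.

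Myh9, the IIA chain, was low throughout, at 4.79, 3.47 and 4.57 CPM in 2n CMs and 15.7, 7.02 and 3.97 CPM in 4n CMs at the 3 ages in turn. E16.5-4n stood above all other libraries, P1-4n stood above P1-2n and both P5 libraries, and the remaining intervals overlapped. The log2 ratio of 4n to 2n was 1.71 (1.31 to 2.13) at E16.5, 1.02 (0.56 to 1.49) at P1 and -0.21 (-0.68 to 0.27) at P5. The P1 ratio fell short of 2-fold under each of the 3 other scalings. Myh9 is abundant in fibroblasts, endothelium and blood cells. The marker sums of fibroblasts, endothelium and immune cells were, like Myh9, higher in 4n than in 2n CMs at E16.5 and P1. In 4n CMs these sums were higher at P1 than at E16.5, with overlapping intervals for the immune sum, and Myh9 was lower. The erythroid sum of 4n CMs was lower at P1 as well. The source of the Myh9 UMIs was not tested. The 6 erythroid markers summed to 5127, 1896 and 2242 CPM in 2n and 10332, 2906 and 1649 CPM in 4n CMs. The 7 fibroblast markers summed to 132, 141 and 261 CPM in 2n and 788, 939 and 357 CPM in 4n CMs. The 7 endothelial markers summed to 29.95, 32.4 and 67.1 CPM in 2n and 113, 132 and 70.7 CPM in 4n CMs, and the 7 immune markers to 3.83, 5.84 and 8.03 CPM in 2n and 24.5, 28.5 and 8.15 CPM in 4n CMs. Of these markers only Ptprc was at 0, in E16.5-2n. All 7 fibroblast markers passed 2-fold between the ploidies at E16.5 and at P1 and 0 of 6 tested did at P5. The shares of all genes past 2-fold were 4.66%, 5.23% and 2.28% at E16.5, P1 and P5.

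CMs with any of the 21 fibroblast, endothelial or immune markers had more Myh9 in every library, with log2 ratios of 0.80 to 1.73 and intervals above 0. When they were left out, which removed from 12.9% (E16.5-2n) to 56.8% (P1-4n) of CMs, Myh9 before birth stood at 3.70 CPM in 2n and 10.6 in 4n CMs, a log2 ratio of 1.52. At P1 it then stood at 2.66 and 2.90 CPM, a log2 ratio of 0.12 in place of 1.02. These P1 values rest on fewer UMIs than the 57 (2n) and 138 (4n) of all CMs, and no interval is given for the ratio. Whether it moved by more than counting error was not tested. Without those CMs the 4n to 2n ratio of Myh10 was 0.30, 0.37 and 0.32 at the 3 ages. Doublets were not removed here, and the part of other cells in the remaining Myh9 value was not tested.

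**Figure D5:**
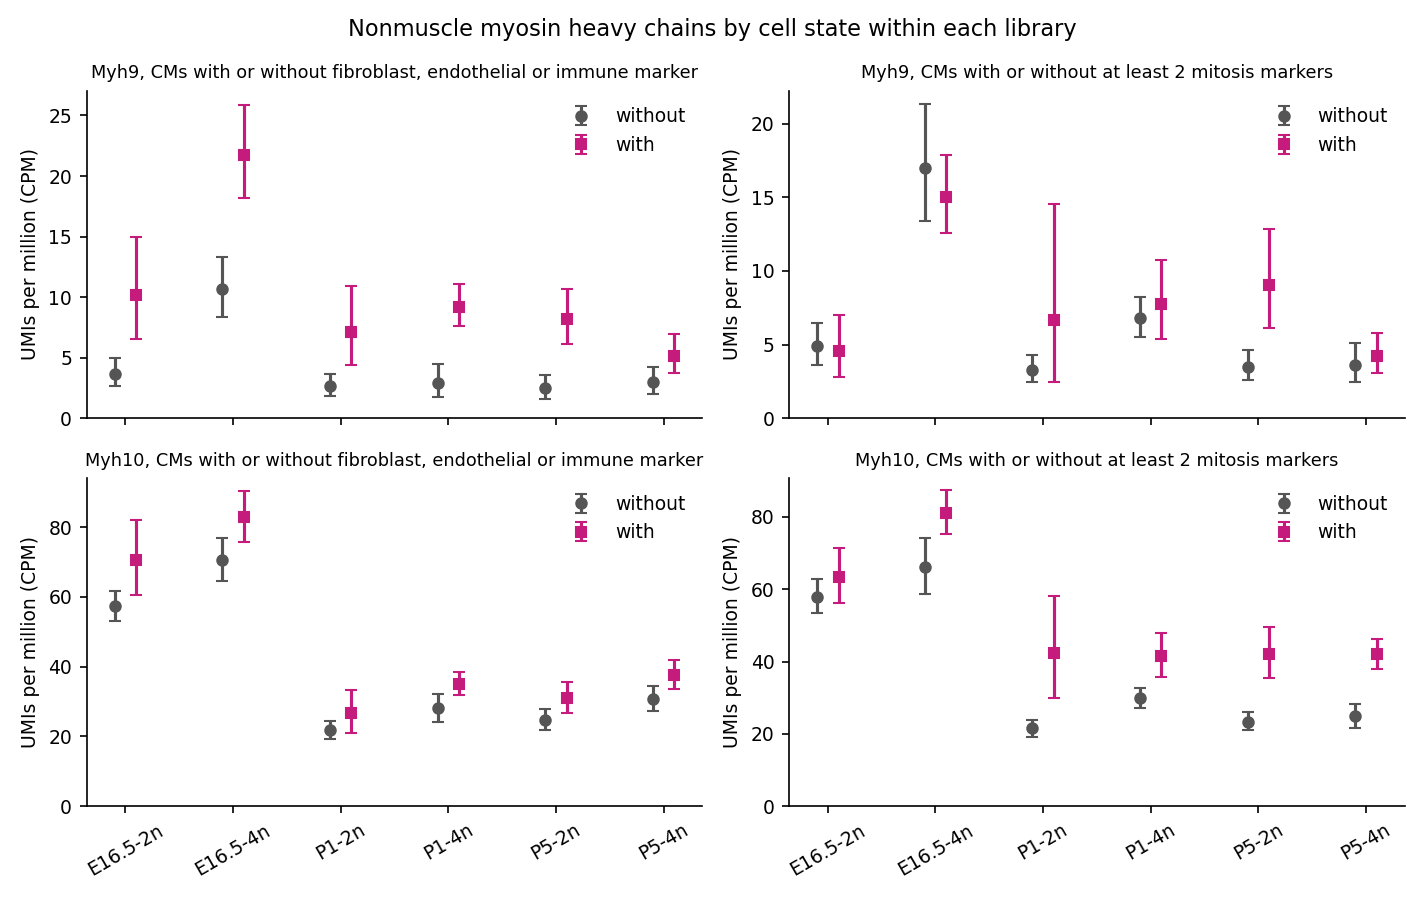
CPM of Myh9 (top) and Myh10 (bottom) in each library for CMs with and without any fibroblast, endothelial or immune marker (left) and with and without at least 2 mitosis markers (right); bars are exact 95% Poisson intervals. Myh9 is higher with other-cell markers in all 6 libraries (21.8 against 10.6 CPM in E16.5-4n), and Myh10 is higher with mitosis markers after birth (42.0 against 24.8 CPM in P5-4n).

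Myh14, the IIC chain, was the rarest member and the only nonmuscle chain that was higher after birth. It had 0, 31 and 65 UMIs in 2n CMs and 1, 43 and 90 UMIs in 4n CMs at the 3 ages, which after birth is 1.89 and 3.63 CPM in 2n and 2.19 and 4.89 CPM in 4n CMs. With the count of 0 in E16.5-2n set to 3 UMIs (0.205 CPM), Myh14 was 9.19-fold higher in P1-2n and 17.7-fold higher in P5-2n. These folds leave out the counting error of the 31 and 65 UMIs, and the exact upper limit of the count of 0 is 0.252 CPM. The exact lower limits of both ratios are smaller, at a log2 ratio of 2.82 in place of 3.20 for P1-2n. In 4n CMs the log2 ratio of P5 to P1 was 1.16 (0.62 to 1.72) and in 2n CMs 0.94 (0.31 to 1.61), and the ploidies of an age had overlapping intervals. The 65 and 90 UMIs came from 64 and 88 CMs.

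Myh7b ranged only from 9.09 to 14.1 CPM, at 14.1, 11.3 and 9.09 in 2n and 9.64, 13.5 and 10.5 in 4n CMs from the earliest age to the latest, and passed 2-fold in no comparison. From the highest level to the lowest, neighbouring libraries had overlapping intervals. The interval of E16.5-2n did not overlap those of E16.5-4n, P5-2n and P5-4n, nor did that of P1-4n overlap those of E16.5-4n and P5-2n. Of the other class II genes Myh11, the smooth muscle heavy chain, had 6 to 30 UMIs in 5 libraries and 70 in P1-4n (3.56 CPM). There the smooth muscle markers Mylk (log2 ratio 2.51) and Tagln (1.37) were also past 2-fold above P1-2n. A further smooth muscle marker, Cnn1, was not higher in P1-4n, where it stood at 6.10 CPM against 7.24 for the 2n library of that age. Myh1, Myh2 and Myh15 had 0 UMIs in all 6 libraries, and Myh3, Myh4, Myh8 and Myh13 had 6, 1, 37 and 8 UMIs in all.

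The partners of the myosin motor were read in lists by role, and the calls were repeated under the 3 other scalings. They are read beside the 14.1% (2n) and 14.5% (4n) of all genes past 2-fold between E16.5 and P1. Between P1 and P5 these shares were 5.01% and 8.24%. Of the 4 cardiac light chains Myl4 and Myl7, the atrial forms, were past 2-fold lower at P1 than at E16.5 in both ploidies, with log2 CPM ratios of -3.54 and -2.60 in 2n CMs, while the ventricular Myl2 (8795 to 12998 CPM) and Myl3 (8142 to 11786 CPM) passed 2-fold in no comparison of ages. Of the smooth and nonmuscle light chains 4 were tested, and Myl6 and Myl9 were past 2-fold lower at P1 than at E16.5 in 2n CMs (log2 ratio -1.31 and -1.04) while 0 of 4 were in 4n CMs. Under the other scalings the 2n values were -0.96 to -1.07 for Myl6, short of 2-fold under the median of ratios, and -0.70 to -0.81 for Myl9, short of it under each, so no difference between the ploidies is read from these counts. Of 8 thick filament partners Myom2, an M-band protein, was 24.1 and 16.9 CPM at E16.5 and 172 to 202 CPM in the postnatal libraries, and the myosin binding protein Mybpc2 passed 2-fold upwards between P1 and P5 (log2 ratio 2.44 in 2n and 2.27 in 4n CMs). In the list of chaperones and light chain kinases Mylk4, a myosin light chain kinase, was past 2-fold higher at P5 than at P1 (2.40 and 1.52). Hsp90aa1 was past 2-fold lower at P1 than at E16.5 (-1.09 and -1.14), a call that ended under each of the other scalings (-0.74 to -0.86 and -0.81 to -0.89). Mhrt, the antisense neighbour of Myh7, stood at 9.44, 18.1 and 34.0 CPM in 2n and 8.19, 16.8 and 32.9 CPM in 4n CMs, with no overlap between ages. How many of all genes separated the ages like this was not counted.

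A list of 20 genes known as controls of the cardiac exchange held the thyroid hormone receptors, TEAD and MEF2 factors and Purb. Of these 20, 16 had enough UMIs to be tested. Of all genes 14.1% (2n) and 14.5% (4n) passed 2-fold between E16.5 and P1, and 5.01% and 8.24% between P1 and P5. Of the 16 tested genes 0 did so in either step and either ploidy. Between E16.5 and P5 only Tead3 did, with log2 ratios of -1.23 in 2n and -1.16 in 4n CMs, and it fell short under each of the other scalings, at -0.78 to -0.95 and -0.63 to -0.87. Hopx then passed 2-fold upwards in 2n CMs under the median of ratios and TMM (up to 1.15, against 0.70 in CPM). Thra, the main thyroid hormone receptor of the heart, ranged from 69.5 to 93.3 CPM and Tead1 from 83.4 to 94.6 CPM. Thrb, the other receptor gene, had too few UMIs to be tested, with 2, 15 and 35 in 2n and 6, 25 and 33 in 4n CMs. From the earliest age to the latest that was 0.137, 0.912 and 1.95 CPM in 2n and 0.459, 1.27 and 1.79 CPM in 4n CMs. Of 8 companions of the embryonic programme 6 were past 2-fold lower at P1 in 2n and 3 in 4n CMs, beside 14.1% and 14.5% of all genes past 2-fold in either direction. Under the median of ratios and TMM the counts were 3 (without Nppb, Acta1 and Actn1) and 2 (without Acta2). The atrial light chains Myl4 and Myl7 are among them and remained past 2-fold under all scalings. Nppa was not among them (log2 ratio -0.08 and -0.38) and passed 2-fold lower between P1 and P5 (-1.01 and -1.20), in 2n CMs only in CPM (-0.87 to -0.96 under the other scalings). Acta1, skeletal α-actin, was past 2-fold higher at P5 than at P1 in 4n CMs (1.79) and short of it in 2n CMs in CPM (0.97), where it passed 2-fold under the other scalings.

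Of 12 genes that control nonmuscle myosin II, Anln, Ect2 and Racgap1, which act at the cleavage furrow, were past 2-fold higher in 4n than in 2n CMs at all 3 ages, with Cit at E16.5, and the kinases Rock1 and Rock2 and the GTPase Rhoa were not. Between the ploidies 4.66%, 5.23% and 2.28% of all genes passed 2-fold at E16.5, P1 and P5. Anilin (Anln) stood at 21.1, 2.9 and 10.8 CPM in 2n and 77.4, 14.5 and 50.6 CPM in 4n CMs at the 3 ages. The 3 genes were lower at P1 than at E16.5 and higher again in P5-4n than in P1-4n, whereas Myh10 differed between those last libraries by less than counting error. Ppp1r12a, of the same list, was past 2-fold lower at P1 than at E16.5 (log2 ratio -1.26 in 2n and -1.67 in 4n CMs). The 2n value stayed past 2-fold under 1 of 3 other scalings. Between E16.5 and P5 the log2 ratios of Ppp1r12a were -1.93 in 2n and -1.88 in 4n CMs. All 16 mitosis markers were higher in 4n CMs at each age. The 4n fraction was gated on DNA content and takes in cells between DNA replication and division, so this difference is tied to the sort. The ploidy ratios of Anln, Ect2, Racgap1 and Myh10 were not separated from that gate.

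Genes were also ranked by how closely their centred log2 CPM followed a member over the 6 libraries, among 6462 genes with at least 20 UMIs in each and 1000 in all. The 5 nearest to Myh6 were Myom2 (root mean square distance 0.17), the fatty acid binding protein gene Fabp3 (0.33), its pseudogene copy Fabp3-ps1 (0.33), Plin4 (0.39) and Coq10a (0.41). Those nearest to Myh7 were Gtsf1 (0.21), Sfrp1 (0.22), a secreted Wnt antagonist, Maff (0.33), the imprinted gene Mest (0.40) and Gpc3 (0.50). Those nearest to Myh10 were Dab2ip (0.08), Gltp (0.08), Ube2l6 (0.10), Armcx2 (0.10) and Rpn2 (0.10). These distances describe 6 libraries of unequal depth and carry no test, and reads of Fabp3 and Fabp3-ps1 can be shared.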

How the data were processed

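The authors sequenced 6 droplet libraries (10x Genomics 3′ chemistry, read 2 of 130 cycles) of sorted left ventricular CMs and deposited unnormalised UMI counts of every gene in every cell, made with Cell Ranger (version not given in the sources used here), STAR and the GRCm38/mm10 build; the submitters' notes also name Seurat 2.3.0. Counts were summed over CMs and divided by the CM total (CPM). Cells with under 1 UMI of any of the 4 filter genes were left out, and no doublet caller was run. With 1 library per condition, log2 CPM ratios carry an exact binomial interval, sums an exact Poisson interval and shares a Clopper-Pearson interval at the 95% level, which cover counting error only. A gene was tested with at least 100 UMIs over both libraries and called at 2-fold, and the ratio code was tested on simulated data. Cells were thinned to 1000 or 2000 UMIs with seed 1. The genes named are the 6 members, Myh11, genes of the lists and the 5 nearest to Myh6, Myh7 and Myh10 by root mean square distance. The nearest were taken among genes with at least 20 UMIs in every library and 1000 in all. Not every listed gene past 2-fold in a comparison is named. Exceptions are stated. The members and lists were chosen with earlier results of these data known. Gene positions came from GENCODE and sequences from RefSeq. Software was python 3.11.15 with numpy 2.4.6, scipy 1.17.1, pandas 2.3.3 and matplotlib 3.10.9, and R 4.3.3 with edgeR 4.0.16 for the TMM alternative. The other alternatives were the median of ratios, totals without the 50 most abundant genes, equal weight per cell, no or stricter CM filter and CMs without other-cell markers.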

Additional observations from a re-analysis of the deposited data

Results flagged for a closer look

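Myh6 differed in opposite directions between the ploidies at different ages. Its log2 CPM ratio of 4n to 2n CMs was -0.26 at E16.5 and -0.16 at P1 and 0.22 at P5, so that 4n CMs had the lower level at the first 2 ages and the higher level at P5. The 4 CM filter genes had a median log2 ratio of -0.27 at E16.5, -0.10 at P1 and -0.09 at P5. Myh7b, the low-level sarcomeric relative, had a log2 ratio of P1 to E16.5 of -0.32 in 2n and 0.48 in 4n CMs. The opposite directions were not tested as differences, since each condition has 1 library, and the 2n value of Myh7b was 0.03 under 1 of 3 other scalings.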

How the results depend on the processing

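No paired test was made, since each condition has 1 library and every library has replicate number 1. The paper describes 3 sorts for each age, each from 1 litter. The 2n and 4n libraries of an age may therefore share litters, and their ratios were taken within an age. Of 23 member ratios past 2-fold, all 222 recomputed values kept their sign and 198 were still past 2-fold. This tally includes the Myh14 ratios against E16.5, which rest on 0 or 1 UMI there and had under 100 UMIs over both libraries. Their 8 or 9 recomputed values each all stayed past 2-fold. The count of members past 2-fold between E16.5-4n and P1-4n went from 4 to 2 without CMs carrying any other-cell marker, under the median of ratios, under TMM and with the 50 most abundant genes left out. The count between P1-4n and P5-4n went from 2 to 1 at 1000 and 2000 UMIs and under both marker exclusions, and that between E16.5-4n and P5-4n went from 4 to 2 without CMs with any other-cell marker. Between the ploidies the count at E16.5 went from 1 to 0 at 1000 UMIs and without CMs with any other-cell marker, and at P1 from 1 to 0 with no CM filter, at 1000 and 2000 UMIs, under both marker exclusions, the 3 scalings and equal weight per cell. Thinning leaves under 100 UMIs of Myh9 and Myh14 in the thinned comparisons that lost a call, so those genes were no longer counted there.

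The Myh7 percent of the pair was 91.8, 29.2 and 7.60 in 2n CMs at E16.5, P1 and P5 and 28.7 and 5.68 in 4n CMs at P1 and P5 when thinned to 1000 UMIs, and 25.1 in 2n CMs at P1 and 27.1 and 5.60 in 4n CMs at P1 and P5 when thinned to 2000 UMIs. It was 23.3 and 8.48 in 2n CMs at P1 and P5 and 92.6, 21.1 and 5.68 in 4n CMs at the 3 ages without CMs with any other-cell marker, an exclusion that kept only 2.44% to 18.1% of CMs. Without CMs with a fibroblast, endothelial or immune marker, an exclusion chosen after seeing the data, it was 26.9 (P1-2n) and 5.11 (P5-4n). With equal weight per cell it was 26.1 (2n) and 25.3 (4n) at P1 and 6.57 (2n) and 5.18 (4n) at P5. The log2 ratio of Myh9 between P5-2n CMs with and without mitosis markers was 1.37 over all CMs and -0.10 under that same exclusion. The causes were not tested. Myh9 with 57 to 205 UMIs and Myh14 with 0 to 90 UMIs per library limit the precision, and the smallest ratios of Myh6, Myh7b and Myh9 changed sign with the scaling.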
